A study of Mus musculus with 12 samples.

Results

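The 6 mature miRNAs of the miR-199 and miR-214 hairpins were examined in gastrocnemius muscle of young and aged mice: miR-199a-3p, miR-199a-5p, miR-199b-3p, miR-199b-5p, miR-214-3p and miR-214-5p. They were chosen by name, as the products of the Dnm3os transcript together with the miR-199b paralog, and make up 6 of the 1900 mature miRNAs in the table. Small RNA was sequenced from 12 male C57BL/6 mice with no genetic or drug treatment, 6 of them young (6 months) and 6 aged (24 months), with 1 library per animal. Whole muscle was used, so fewer cells of one type and less of a miRNA per cell cannot be told apart. No member differed between the ages beyond the spread between animals. The most abundant product, 1 sequence deposited both as miR-199a-3p and as miR-199b-3p, was bounded tightly. The 95% interval of its aged to young ratio was 0.869 to 1.26 under the name miR-199a-3p and 0.809 to 1.20 under miR-199b-3p.

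A miRNA hairpin is cut into a 5p and a 3p strand, and the strand loaded into an Argonaute protein pairs with mRNAs mainly through its seed, bases 2 to 8. Dnm3os is a long noncoding RNA transcribed antisense to the dynamin gene Dnm3 and serves as the primary transcript of miR-199a and miR-214. The 3 dynamin genes of the mouse each carry a miR-199 hairpin on their opposite strand. miR-199 and miR-214 are known from connective tissue, where fibroblasts and other mesenchymal cells express them, and have been studied in fibrosis, skeletal development and the differentiation of muscle cells.

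In the mm10 genome (GRCm38), Mir199a-2 lies at chr1:162217814-162217923 and Mir214 at chr1:162223368-162223477, both on the plus strand, within an exon of Dnm3os and opposite an intron of Dnm3, with 5444 bases between them. The other copy of miR-199a, Mir199a-1, lies at chr9:21496495-21496564 on the minus strand, opposite an intron of Dnm2. Mir199b lies at chr2:32318460-32318569 on the plus strand, opposite an intron of Dnm1. RefSeq sequences on this build matched 5 of the 6 members, all but miR-199b-5p. They are shown because they decide which members can be told apart by sequencing, with the seed in capitals.
mmu-miR-199a-3p: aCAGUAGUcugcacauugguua
mmu-miR-199b-3p: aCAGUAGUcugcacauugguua
mmu-miR-199a-5p: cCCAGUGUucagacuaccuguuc
mmu-miR-214-3p: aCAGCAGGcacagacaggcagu
mmu-miR-214-5p: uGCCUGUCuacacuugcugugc
mmu-miR-761: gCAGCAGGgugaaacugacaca
The Mir199a-2 and Mir214 hairpins show how the strands sit in the parts of Dnm3os they come from, here with the 5p strand and then the 3p strand in capitals.
Mir199a-2: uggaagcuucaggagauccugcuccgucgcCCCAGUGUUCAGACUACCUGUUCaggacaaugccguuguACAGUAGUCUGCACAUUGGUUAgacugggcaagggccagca
Mir214: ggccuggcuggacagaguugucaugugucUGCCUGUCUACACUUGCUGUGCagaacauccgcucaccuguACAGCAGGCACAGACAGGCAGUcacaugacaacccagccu
miR-199a-3p and miR-199b-3p are 1 sequence of 22 bases under different names. Their seed, CAGUAGU, differs from the seed CAGCAGG of miR-214-3p. Besides miR-214-3p, the seed CAGCAGG was found in miR-761, which had no read in any of the 12 libraries. The 5p strands of miR-199a and miR-214 had the seeds CCAGUGU and GCCUGUC. The search for shared seeds covered miRNAs with both a sequence and a row in the table, and so did not include miR-199b-5p.

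The deposited values, read as log2 of FPKM from the whole-read steps they fall on once the log is undone, hold a count of reads made comparable between miRNAs of unequal length and libraries of unequal depth, with 0 for no read. The log was undone and rows that name the same mature miRNA were summed. Low values fell on whole multiples of 1 read, which gave the reads behind each value and the depth: 222261 to 6839519 mapped reads in the young libraries and 126173 to 8133199 in the aged ones. Young 6 and aged 3 were the deepest, and young 4 and aged 5 the shallowest. Depth also differed with age: apart from young 6, the young libraries had 222261 to 638815 reads. Apart from aged 5, the aged ones had 1288252 to 8133199, so zeros and counting error weigh more on most young libraries. One read of a 22-base miRNA was therefore worth 5.85 FPKM in aged 3 and 377 FPKM in aged 5, which matters for the rarer members.

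The shared 3p sequence fills 3 rows of the table, 2 named miR-199a-3p and 1 named miR-199b-3p. Of its 22836 reads in the 12 libraries, 34.1% (95% exact binomial interval, 33.5 to 34.7) stood in the first miR-199a-3p row, 33.4% (32.8 to 34.0) in the second and 32.5% (31.9 to 33.1) in the miR-199b-3p row. An equal split would be 33.3%, and within single libraries the interval held that value in 11, 12 and 11 of 12 libraries. The rows differed from an equal split by about 1 percentage point or less, and the level under each name therefore followed the number of its rows. The values of miR-199a-3p and miR-199b-3p are given below by name as deposited, but they measure 1 pool of molecules that the 3 hairpins can each contribute to. miR-199a-5p likewise fills 2 rows, for Mir199a-1 and Mir199a-2. Its 3180 reads were split 50.6% (48.8 to 52.3) to 49.4% (47.7 to 51.2), so reads of the Dnm3os hairpin cannot be told apart from those of Mir199a-1. These intervals cover counting error only.

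**Figure D1:**
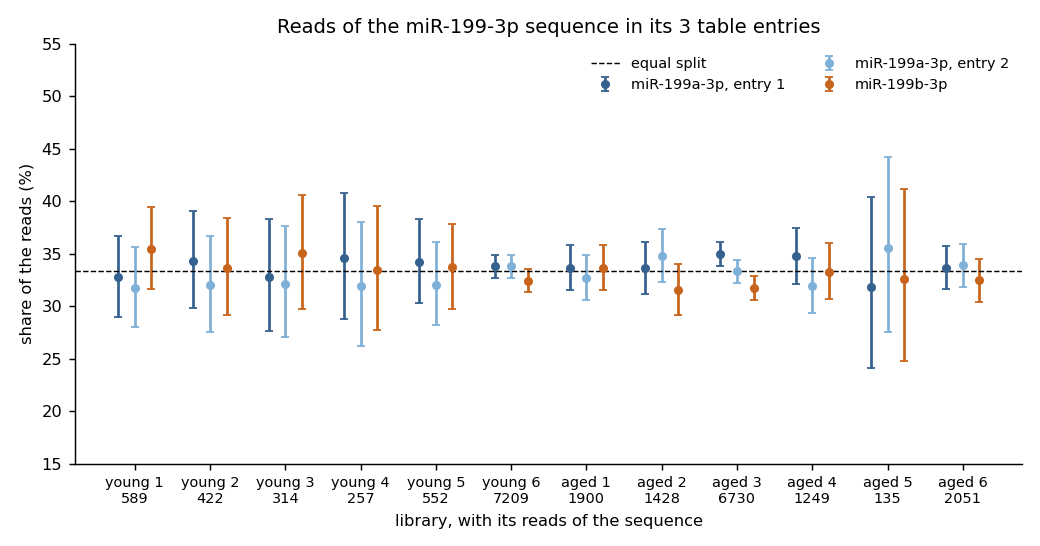
Share of the reads of the miR-199-3p sequence (y axis, in percent, from 15 to 55) that stood in each of its 3 table rows, per library (x axis, with the library's reads of the sequence), for 6 young and 6 aged libraries. Points are shares with 95% exact binomial intervals, and the dashed line marks the equal split of 33.3%. The points lie near the line in every library, and the widest intervals belong to aged 5, with 135 reads.

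The 3p strand shared by miR-199a and miR-199b was the most abundant product. Summed over its 3 rows it ranged from 41254 to 57402 FPKM in young muscle (median 49016) and from 39405 to 70331 in aged muscle (median 49234), with means of 49284 ± 6252 and 51042 ± 10438 (SD, n = 6 each). It made up 0.115% ± 0.016 of the summed FPKM of a young library and 0.117% ± 0.028 of an aged one. The groups overlapped over most of their range, and the highest library was aged 6.

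Under the name miR-199a-3p, the young libraries ranged from 27381 to 38052 FPKM (median 32517) and the aged ones from 26902 to 47479 (median 33417). This rests on 171 to 4872 reads per young library and 91 to 4595 per aged one. All 6 members were tested together with every other miRNA above 0 in at least 5 of 12 libraries, 482 in all, with limma on log2(FPKM + 48.2) and Benjamini-Hochberg adjustment. Changes below are log2 differences, aged minus young, on that scale. The added 48.2 draws the change of low values toward 0. Where a library has no read, the size of the change follows the added value. The change of miR-199a-3p was 0.07 (SE 0.13, limma adjusted p = 0.899), with 15 of 29 other miRNAs of like level (mean within 1 log2 unit) showing a smaller spread within the groups. By the same measure, the spread was smaller in 37 of 47 for miR-199a-5p and 84 of 94 for miR-214-5p. It was smaller in 13 of 26 for miR-199b-3p, 18 of 75 for miR-199b-5p and 40 of 77 for miR-214-3p.

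miR-199b-3p, the same sequence under its other name, ranged from 13873 to 19349 FPKM in young muscle (median 16500) and from 12503 to 22852 in aged muscle (median 16003). Its log2 change was -0.02 (SE 0.14, limma adjusted p = 0.974). The groups overlapped, as they did for miR-199a-3p, and aged 3 was the lowest and aged 6 the highest library under both names.

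miR-199a-5p, the opposite strand of the miR-199a hairpins, has another seed than the 3p strands. Its level ranged from 3485 to 11081 FPKM in young muscle (median 5822, 24 to 1131 reads) and from 4941 to 8033 in aged muscle (median 6479, 20 to 884 reads). The lowest and the highest library were both young, young 3 and young 5, so the aged range lay inside the young one. The log2 change was 0.12 (SE 0.21, limma adjusted p = 0.866). The SD on the log2 scale was 0.60 in young and 0.24 in aged muscle, where counting of reads alone would give about 0.20 and 0.16. The difference between these SDs was not tested.

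miR-199b-5p, the opposite strand of miR-199b, fills 1 row of the table. Whether its reads are kept apart from those of miR-199a-5p was not tested. It ranged from 498 to 1399 FPKM in young muscle (median 996, 5 to 146 reads) and from 526 to 1082 in aged muscle (median 742, 3 to 94 reads). Its mean was 993 ± 305 in young and 764 ± 192 in aged muscle (SD, n = 6 each), but the groups overlapped and both the lowest and the highest library were young. The log2 change was -0.33 (95% interval -0.96 to 0.30, SE 0.31, limma adjusted p = 0.700), an interval that reaches from a ratio of 0.514 to 1.23. The log2 SD of 0.48 in young and 0.33 in aged muscle stood beside about 0.48 and 0.42 from counting alone. Without the shallowest library of each age the SD was 0.54 and 0.25, and the counting part 0.44 and 0.28.

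miR-214-3p comes from the same Dnm3os transcript as the Mir199a-2 products and is the strand usually taken as the guide. It ranged from 428 to 1218 FPKM in young muscle (median 775, 2 to 147 reads) and from 377 to 1201 in aged muscle (median 793, 1 to 124 reads). The ranges coincided almost entirely. The lowest values came from the shallowest library of each age, young 4 with 2 reads and aged 5 with 1 read, counts at which 1 read more or less moves the level by a large part. The log2 change was -0.03 (95% interval -0.74 to 0.67, SE 0.34, limma adjusted p = 0.990).

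miR-214-5p, the opposite strand, was the least abundant member. It had no read in young 2 and young 4, where 3 reads would be worth 293 and 643 FPKM, so its level there may have reached those limits. The other young libraries ranged from 304 to 622 FPKM (2 to 54 reads) and the aged ones from 232 to 407 (1 to 46 reads), with a median of 338 FPKM over all 6 libraries of either age. The aged values lay between the zeros and the highest young value, young 5. The log2 change was 0.79 (95% interval -0.49 to 2.07, SE 0.62, limma adjusted p = 0.637). Its size follows the pseudocount through the 2 zeros: with 1 FPKM in place of 48.2 it was 2.56, and with 482 FPKM it was 0.15, neither past the threshold. limma voom on the reads gave 0.075 (adjusted p = 0.962), and the reads pooled over the libraries of each age, which the deepest library dominates, stood at 7.48 per 1e+06 mapped reads in young and 6.23 in aged muscle.

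**Figure D2:**
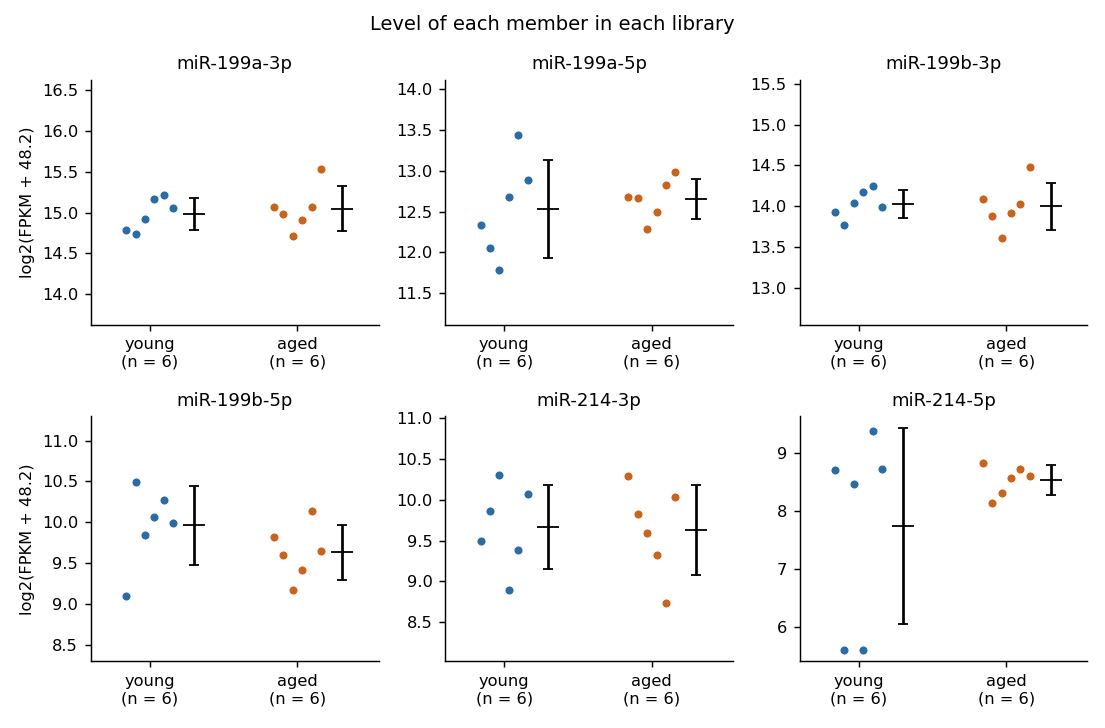
Level of each of the 6 members in each library, as log2(FPKM + 48.2) on the y axis, for 6 young (blue) and 6 aged (orange) libraries, replicates 1 to 6 from left to right. Each dot is 1 library, and the black bar gives the mean ± SD. The groups overlap for every member, and the 2 lowest dots of miR-214-5p are young libraries with no read.

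Of the 482 tested miRNAs, 14 (2.90%) had an adjusted p under 0.05 and 62 (12.9%) an unadjusted p under 0.05. Of the 6 members, 0 passed either threshold with limma. The members changed by a median of 0.02 on the log2 scale, 3 of them higher and 3 lower, against a median of 0.07 over all 482. This count by name holds the shared 3p sequence on both sides, as miR-199a-3p among the higher and miR-199b-3p among the lower. Summed over its rows, that sequence changed by 0.04 (limma adjusted p = 0.943). No library stood apart from its group for any member by Dixon's criterion.

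**Figure D3:**
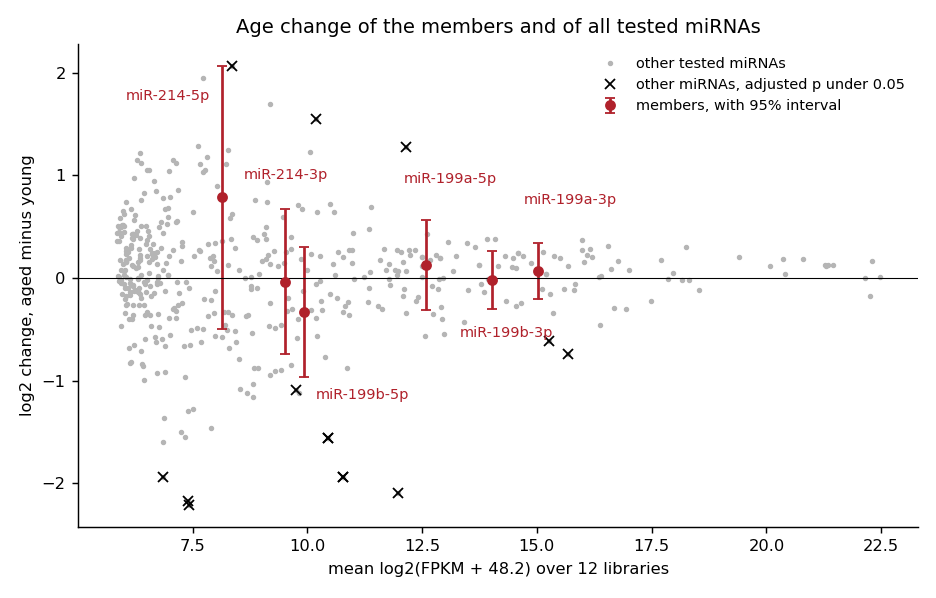
Log2 change with age (y axis, aged minus young, from 6 libraries each) against the mean level over the 12 libraries (x axis, log2(FPKM + 48.2)) for the 482 tested miRNAs. Red points are the 6 members with their 95% limma intervals (miR-214-3p and miR-199b-5p are moved slightly sideways so that their bars stay apart), grey dots are other miRNAs and crosses are those with an adjusted p under 0.05. Every member's interval holds 0, and the intervals are wider at lower levels.

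In order of mean level over the 12 libraries, miR-199a-3p (33493 FPKM) stood above miR-199b-3p (16670), miR-199a-5p (6397), miR-199b-5p (878), miR-214-3p (799) and miR-214-5p (303). These levels are scaled per length, and whether the libraries captured each sequence equally well was not tested. The first 3 steps of this order held in 12 of 12 libraries. miR-199a-3p was 2.01-fold above miR-199b-3p (log2 difference 1.00 ± 0.08, SD, n = 12), the ratio of their row numbers. miR-199b-3p was 2.68-fold above miR-199a-5p, and miR-199a-5p 6.94-fold above miR-199b-5p. The 2.68-fold step sets a single row of the 3p sequence against all rows of miR-199a-5p, so its size also follows the row numbers. Summed over all its rows, the 3p sequence had means of 49284 FPKM in young and 51042 in aged muscle. miR-199b-5p and miR-214-3p did not differ beyond their spread: the log2 difference was 0.15 ± 0.69, and miR-199b-5p was the higher in 5 of 12 libraries. miR-214-3p was above miR-214-5p in 10 of 12 libraries. miR-214-3p was lower than miR-199a-5p by 7.28-fold in young and 8.12-fold in aged muscle. Since reads of miR-199a cannot be assigned to Mir199a-1 or Mir199a-2, these levels give no comparison of the hairpins within Dnm3os.

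The balance of the strands was compared as log2 of 5p over 3p, in a limma fit over the 130 miRNA names with both strands above 0 in at least 5 of 12 libraries. The 3p level under either miR-199 name is a share of the common pool set by its rows rather than an amount measured for that hairpin. With this limit, the 5p strand of miR-199a was the minor one, with 15.7% ± 4.26 of the FPKM of both strands in young and 15.9% ± 0.97 in aged muscle (SD, n = 6 each). The log2 ratio of young libraries lay between -3.14 and -1.78, and that of aged libraries inside this range, between -2.56 and -2.25. It changed by 0.06 (SE 0.23, limma adjusted p = 0.919). In miR-199b, under the same limit, the log2 ratio went from -4.06 to -4.37, by -0.31 (SE 0.26, limma adjusted p = 0.575). In miR-214, 5p held 22.1% ± 19.8 in young and 30.9% ± 10.6 in aged muscle, and the log2 ratio changed by 0.82 (SE 0.66, limma adjusted p = 0.559). This value was 2.60 with a pseudocount of 1 FPKM, 0.17 with 482 FPKM and 0.35 without young 2, which has no miR-214-5p read. Both strands of miR-214 had equal reads in young 5 and in aged 5, in the latter with 1 read each. Of the 130 names, 1 (0.769%) was called, and 0 of the 3 hairpin names of the members.

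**Figure D4:**
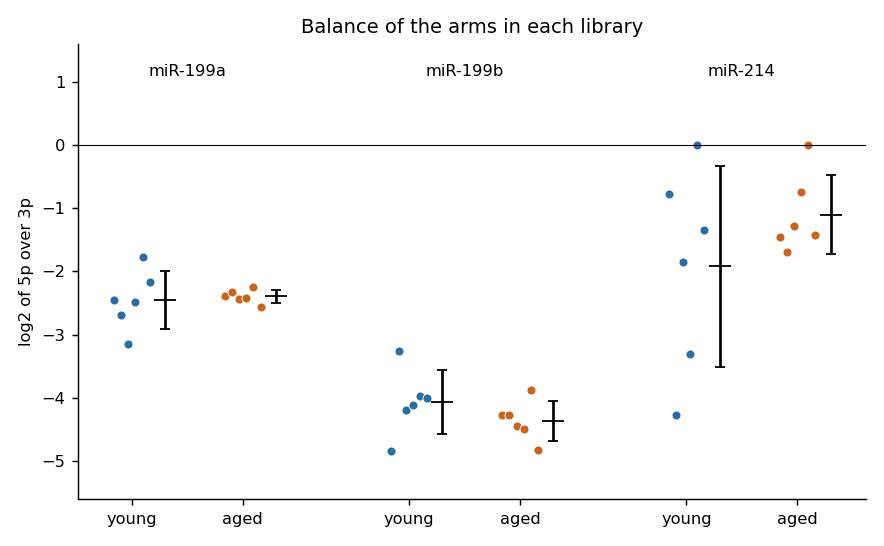
Log2 of the 5p over the 3p level (y axis, each FPKM with 48.2 added) in each young (blue) and aged (orange) library, for miR-199a, miR-199b and miR-214, with the mean ± SD in black (n = 6 per group). The 3p strand is the higher one in all libraries for miR-199a and miR-199b, and the spread is largest for miR-214 in young muscle.

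Ratios between members of different hairpins were compared with a two-sided exact permutation test over the 12 libraries, adjusted over the 5 ratios. The smallest p this design allows is 0.00216. The log2 ratio of miR-199a-5p to miR-199b-5p was 2.57 ± 0.68 in young and 3.02 ± 0.22 in aged muscle (exact p = 0.177, adjusted 0.444). That of miR-199a-3p to miR-199b-3p was 0.96 ± 0.07 and 1.05 ± 0.05 (exact p = 0.0346, adjusted 0.173), a difference that did not pass the adjustment and lies within rows of 1 sequence. miR-214-3p stood at -5.32 ± 0.62 and -5.42 ± 0.54 against miR-199a-3p (exact p = 0.760, adjusted 0.760) and at -2.86 ± 0.96 and -3.02 ± 0.58 against miR-199a-5p (exact p = 0.723, adjusted 0.760). For miR-214-5p against miR-199a-5p the values were -4.78 ± 1.58 and -4.12 ± 0.27 (exact p = 0.422, adjusted 0.703). No ratio differed between the ages after adjustment.

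Over the 12 libraries, 10 pairs of distinct products were compared, with the shared 3p sequence summed over its rows. miR-199-3p and miR-199a-5p moved together, with Pearson's r = 0.68 (permutation p = 0.0153, adjusted 0.153) and Spearman's rho = 0.82 (permutation p = 0.0017, adjusted 0.017). The correlation r was 0.76 within young and 0.92 within aged muscle, and 0.75 without the 2 libraries farthest from the median of miR-199-3p. Only rho passed the adjustment. Both are scaled by the same depth of a library, so they share its error.

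No relation was detected between miR-214-3p and miR-199-3p, both of which Dnm3os carries: r was 0.01 (permutation p = 1.00, adjusted 1.00) and rho -0.01 (permutation p = 0.977, adjusted 0.977), with r = -0.47 within young and 0.31 within aged muscle, and -0.29 without the 2 farthest libraries. Against miR-199a-5p, r was -0.29 (permutation p = 0.362, adjusted 0.656) and rho -0.24 (permutation p = 0.444, adjusted 0.741). The adjusted p of the other 7 pairs was at least 0.656 for r and at least 0.256 for rho. The level of miR-214-3p rests on 1 to 147 reads, and its log2 SD was 0.51 in young and 0.55 in aged muscle, against about 0.60 and 0.64 from counting. Without the shallowest library of each age, these were 0.39 and 0.37 against 0.47 and 0.26. How strong a relation these counts could have shown was not tested.

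**Figure D5:**
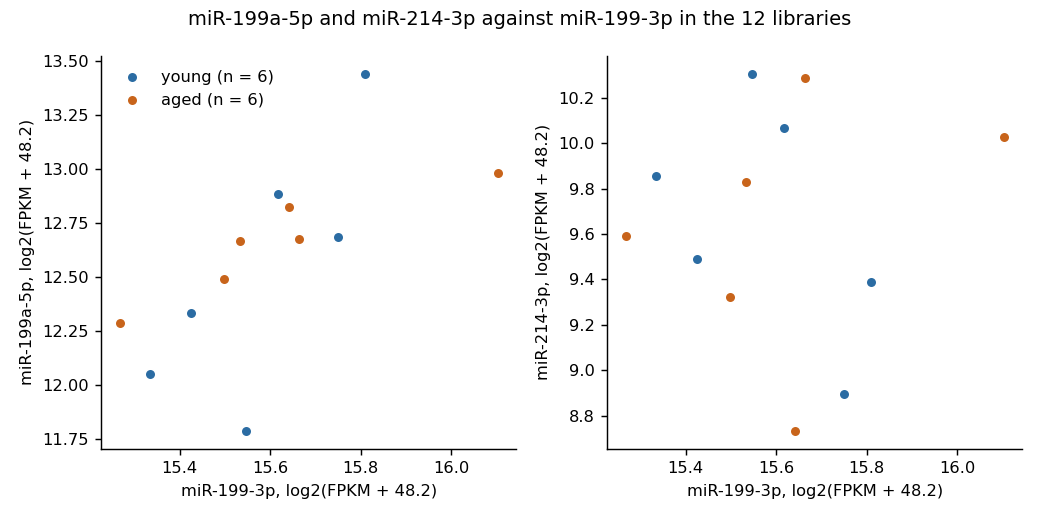
Level of miR-199a-5p (left) and miR-214-3p (right) on the y axis against the summed level of the miR-199-3p sequence on the x axis, all as log2(FPKM + 48.2), with 1 dot per library (6 young in blue, 6 aged in orange). The dots of miR-199a-5p run upward with miR-199-3p (r = 0.68), and those of miR-214-3p show no such order (r = 0.01).

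Among 211 other miRNAs read in all 12 libraries, those most like miR-199a-3p were let-7f-2-3p (Pearson's r = 0.66), miR-195a-5p (0.62) and miR-204-5p (0.61). Those most like miR-214-3p were miR-451a (0.76), a miRNA of red blood cells, miR-19b-3p (0.61) and miR-1943-5p (0.61). They are the highest of many values over 12 libraries, given as a description. Without the 2 libraries farthest from the member's median, r was 0.90, 0.56 and 0.24 for the first 3 and 0.63, 0.19 and 0.54 for the others. Of these 6, 0 were called with age (limma adjusted p from 0.196 to 0.991).

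Of 14 other miRNAs listed for mesenchymal cells, 13 were tested (miR-574-5p had no read in any library), 0 were called and 2 had an unadjusted p under 0.05, beside 2.90% and 12.9% of all tested miRNAs. Of the 13, 9 were higher and 4 lower, with a median log2 change of 0.08 against 0.07 over all tested miRNAs. miR-21a-5p, known from fibroblast activation, was at 99508 ± 19505 FPKM in young and 105318 ± 18882 in aged muscle (log2 change 0.08, limma adjusted p = 0.850). miR-145a-5p, of smooth muscle and other contractile cells, was at 12828 ± 2461 and 9403 ± 758 (log2 change -0.43, limma adjusted p = 0.0975), while its opposite strand miR-145a-3p and its cluster partner miR-143-3p had log2 changes of 0.31 and 0.17 (limma adjusted p = 0.494 and 0.679). miR-152-3p was at 2200 ± 393 and 3067 ± 541 FPKM (log2 change 0.47, limma adjusted p = 0.232). Of the 6 miRNAs known to target collagen or CTGF mRNAs, 0 were called and 2 had an unadjusted p under 0.05, 3 were higher and 3 lower, and the median was 0.05. miR-29b-3p, which targets collagens, was at 2255 ± 985 and 3394 ± 401 FPKM (log2 change 0.69, limma adjusted p = 0.164), and miR-30c-5p, which targets CTGF, at 141777 ± 27825 and 114119 ± 14036 (log2 change -0.30, limma adjusted p = 0.287).

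The cell types that whole muscle holds were followed by their marker miRNAs. As a share of the summed FPKM of a library, the 7 muscle fibre miRNAs made up 17.0% to 22.2% in young and 16.0% to 18.1% in aged muscle, and the 6 members 0.112% to 0.170% and 0.105% to 0.190%. Of the 7, 1 was called, beside 2.90% of all tested miRNAs: miR-206-3p, which is tied to slow fibres and regeneration (log2 change 1.54, limma adjusted p = 0.0296). That call depends on the settings. With a pseudocount of 1 FPKM, no filter, limma without trend or depth as a covariate, 0 miRNAs were called as higher. The same held without young 3 and without aged 3, 4, 5 or 6. The 3 smooth muscle markers held 9.39% to 14.5% in young and 11.6% to 13.6% in aged libraries, and the 2 endothelial markers 0.663% to 1.08% and 0.770% to 0.961%. Such a share follows the most abundant miRNAs of its list. That of smooth muscle was nearly all miR-143-3p, also listed as mesenchymal, with means of 4.91e+06 FPKM in young and 5.47e+06 in aged muscle. The means of miR-145a-5p were 12828 and 9403 FPKM, and those of miR-145a-3p 12270 and 14499. The markers of blood and nerve held smaller summed shares than the members, whose sum is mostly the miR-199-3p sequence. Singly, markers such as miR-142-5p, miR-338-3p and miR-451a stood above miR-199b-5p and both miR-214 strands in mean level. The 3 markers of red blood cells held 0.0140% to 0.0246% in young and 0.0066% to 0.0264% in aged libraries. The 4 of white blood cells held 0.0182% to 0.0461% and 0.0259% to 0.0626%, and the 3 of nerve 0.0099% to 0.0234% and 0.0084% to 0.0196%. Each of these shares overlapped between the ages, 0 markers of the last 5 lists were called, and none was at 0 in all libraries. The label of the members as fibroblast miRNAs had no independent marker among these miRNAs, and the share of fibroblasts in each sample was not tested.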

How the data were processed

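Small RNA of gastrocnemius muscle was sequenced in 12 libraries. The authors trimmed adaptors, used BWA (default settings) to place the reads on mm10, and then scaled the reads of each miRBase mature miRNA to FPKM. The submitters' processing notes name TopHat2. The deposited values are log2 FPKM to 2 decimals. This scale was read from the values, since the methods name log2 for mRNA only. Strand use and the assignment of reads that fit several places are not given in the sources used here.

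The log was undone, 0 was kept as no read, and rows of 1 mature miRNA were summed. FPKM multiplied by length minus 1 gave reads: 99.6% of 3212 values below 25 reads fell no more than 0.15 from a whole number, as did 31 of 31 such values of the members. The estimated depth was 126173 to 8133199 reads, which limits the precision of the rarer members. A limma fit (version 3.58.1, R 4.3.3, eBayes with trend) on log2(FPKM + 48.2), the median of the smallest value above 0 per library, compared 6 aged with 6 young libraries over miRNAs above 0 in at least 5 of 12 (482 miRNAs), with Benjamini-Hochberg adjustment. Steps were tested on simulated data. For the limma fit these had 1 fixed spread for all miRNAs beside counting error. Recovery of changes was scored only at a mean of 482 FPKM or more, a level that miR-214-5p does not reach. Ratios and correlations used permutation tests (SciPy 1.17.1). Pseudocounts, filters, scaling, depth, copies, replicate number and left-out libraries were varied. limma voom on the reads and summing identical sequences were added after seeing the data. RefSeq and GENCODE gave sequences and positions on GRCm38, the same assembly as mm10.

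The members and the lists (mesenchymal, collagen or CTGF, muscle fibre, endothelium, smooth muscle, red and white blood cells, nerve) were chosen with earlier results of these data known. The miRNAs named were the members, those sharing a seed, the 3 with the highest correlation with miR-199a-3p and with miR-214-3p, and those on the lists.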

Additional observations from a re-analysis of the deposited data

How the results depend on the processing

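No member, strand balance or ratio passed its threshold in the analysis reported or in any alternative, and 296 of 318 values of these results kept their direction. Some alternatives, such as other filters, the replicate block, limma without trend and the exact permutation test, alter only the p-value or the set tested. They return the same log2 change, so part of the 296 was fixed in advance. The 22 values that did not keep their direction changed sign around 0, and the cause was not tested. For miR-199b-3p the log2 change became 0.018 with depth as a covariate, 0.048 without the deepest library of each age and 0.0021 without the shallowest. For miR-214-3p it became 0.086 after quantile normalization and 0.053 without the deepest libraries, and for miR-199a-5p -0.0061 with limma voom on the reads. Leaving out 1 library gave -0.030 to 0.13 for miR-199a-3p, -0.025 to 0.31 for miR-199a-5p, -0.12 to 0.054 for miR-199b-3p, -0.50 to -0.22 for miR-199b-5p, -0.19 to 0.14 for miR-214-3p and 0.36 to 1.11 for miR-214-5p. It gave -0.081 to 0.19, -0.46 to -0.15 and 0.35 to 1.20 for the strand balance of miR-199a, miR-199b and miR-214, and -0.29 to 0.082 and -0.40 to 0.12 for the ratios of miR-214-3p to miR-199a-3p and to miR-199a-5p. The 1 alternative with an unadjusted p under 0.05 for a member was limma voom for miR-199b-5p, with a log2 change of -0.52 (unadjusted p = 0.0468, adjusted 0.341), on a scale where the median of all tested miRNAs was -0.07 in place of 0.07. The count of all tested miRNAs called moved from 14 to 6 with a pseudocount of 1 FPKM, to 7 with no filter, to 8 with depth as a covariate and to 0 with the exact permutation test (66 at an unadjusted p under 0.05). The exact test cannot go below p = 0.00216 with 6 against 6, which leaves little room for a call after adjustment over 482, so its 0 says nothing about the members. Without 1 library it was 6 to 16. The count was 6 without young 3, 9, 7, 8, 9, 8 and 9 without aged 1 to 6.

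No shared deviation of same-numbered young and aged libraries was detected (correlations -0.09 to 0.09), and 0 of 6 young libraries correlated best with their own number. With libraries of such unequal depth, a weak shared deviation could be missed, so a pairing of the animals by number is not excluded. With the replicate number as a block, 14 miRNAs were called, 0 of them members, with log2 changes as without it. Depth limits miR-199b-5p and both miR-214 strands, which rest on 15 reads or fewer in 5 of the 6 young libraries.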
